A study of Homo sapiens with 9 samples.

Results

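The genes described here are 38 targets and regulators of the transcription factor NRF2 together with enzymes of detoxification, out of 52165 gene identifiers present in both count tables of the series. They were taken as a named list of symbols, each matched to 1 identifier in both tables, and fall into 7 roles: sensor and transcription factors, glutathione, thioredoxin, NADPH supply, carbonyl and aldehyde enzymes, transporters, and conjugation, hydrolysis and oxidation. Polyadenylated RNA had been sequenced from Kyse150 and TE11, both established lines of human esophageal squamous cell carcinoma. Cells of each line had received, by lentivirus, either a control shRNA (shNC) or one that targets the histone demethylase KDM2A (shKDM2A). The 4 groups are 2 Kyse150 shNC libraries, 2 Kyse150 shKDM2A libraries, 3 TE11 shNC libraries and 2 libraries labelled TE11 shKDM2A. The labels name no untransduced cells, no further shRNA and no oxidative or electrophilic treatment.

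NRF2, the product of NFE2L2, is held at a low level by KEAP1, which binds it in the cytoplasm and directs it to degradation. Electrophiles and oxidants modify KEAP1, NRF2 then accumulates, pairs with a small MAF protein in the nucleus and binds antioxidant response elements in DNA. Its targets make and recycle glutathione and thioredoxin, supply NADPH, reduce carbonyls and quinones, conjugate foreign compounds and export the conjugates. Mutations of NFE2L2 or KEAP1 that keep the pathway on are known from squamous carcinomas, the esophageal type included. NRF2 is controlled largely at the level of the protein, which RNA counts do not measure.

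To show the kind of DNA element involved, promoter windows were searched for the core letters TGACNNNGC on both strands (RefSeq, GRCh38.p14). Each window ran from 250 bases before to 50 bases after a transcription start. Windows were at hand for 30 of the 38 genes. The letters stood in 13 of 40 windows of these genes (32.5%) and in 4687 of 35116 windows of all genes (13.3%). The stretches below are those of 8 genes whose levels are described further on, chosen because they span glutathione, thioredoxin, NADPH supply and conjugation. A match was found for 12 genes, of which CBR1, GCLM, KEAP1 and PIR are not printed. Genes with a window but no match include GCLC, GSTM3, AKR1C1, AKR1C2 and ABCC2. Whether a match goes with a change in level was not tested. Each is printed 5′ to 3′ on the named strand, with the core letters in capitals.
GPX2, chr14:64942849-64942877, forward strand, core within the 122 bases before the start of this reverse-strand gene: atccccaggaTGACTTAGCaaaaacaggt
GSTP1, chr11:67583736-67583764, forward strand, core within the 66 bases before the start: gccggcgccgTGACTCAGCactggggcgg
TXNRD1, chr12:104215664-104215704, forward strand, core within the 99 bases before the start: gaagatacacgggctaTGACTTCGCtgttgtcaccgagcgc
ME1, chr6:83431164-83431204, reverse strand, core within the 137 bases before the start of this reverse-strand gene: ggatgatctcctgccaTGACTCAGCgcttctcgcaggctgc
PGD, chr1:10398847-10398887, reverse strand, core within the 201 bases before the start of this forward-strand gene: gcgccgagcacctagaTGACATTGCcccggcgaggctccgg
UGT1A6, chr2:233692776-233692816, forward strand, core within the 98 bases before the start: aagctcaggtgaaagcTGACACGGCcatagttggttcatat
EPHX1, chr1:225825260-225825300, forward strand, core within the 78 bases before the start: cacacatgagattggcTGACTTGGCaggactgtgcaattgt
CYP4F11, chr19:15934999-15935039, forward strand, core within the 156 bases before the start of this reverse-strand gene: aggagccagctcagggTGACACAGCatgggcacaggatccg
A match is a description of these letters and not of binding, which was not measured in these samples.

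The Kyse150 libraries held 6052883 to 7167055 gene counts each and the TE11 libraries 8457767 to 12073098. KDM2A was read first because it checks the labels. It stood at 172.9 CPM ± 1.88 (SD, n = 2) in Kyse150 controls and 105.5 CPM ± 1.89 (SD, n = 2) in Kyse150 knockdowns, where CPM is counts per 1000000 of the TMM-scaled library size of that line. In TE11 it stood at 118.6 CPM ± 2.06 (SD, n = 3) in controls and 132.6 CPM ± 9.43 (SD, n = 2) in the libraries labelled knockdown, so the reduction the label names was not seen there. The log2 fold change was −0.71 (SE 0.07, adjusted p = 3.89e-09, edgeR) in Kyse150 and 0.16 (SE 0.07, adjusted p = 0.0335, edgeR) in TE11. The TE11 call was lost with DESeq2 (adjusted p = 0.0739), upper-quartile scaling, no filter, a higher count minimum, the replicate block, and without control replicate 2, control replicate 3 or labelled knockdown replicate 2 (adjusted p = 0.0546 to 0.398 over these). Over 12085 coding genes the libraries labelled TE11 knockdown correlated with Kyse150 controls at 0.923 to 0.928 and with TE11 controls at 0.781 to 0.783, while Kyse150 controls and TE11 controls correlated at 0.718 to 0.732. All TE11 directions below are therefore those between the libraries as labelled, and since this holds for both libraries of that group, no count can be given without them. All 10 squamous epithelial markers had counts in every group, and their summed level was 2002 to 2069, 1813 to 1854, 5198 to 5628 and 1847 to 1898 CPM in Kyse150 controls, Kyse150 knockdowns, TE11 controls and the libraries labelled TE11 knockdown. Other marker lists moved too: columnar epithelium summed to 6436 to 6525, 7241 to 7805, 3560 to 3953 and 6142 to 6346 CPM in the same order, with CDX2, TFF3 and MUC5AC at 0 in every group. Endothelial markers summed to 16.1 to 20.8, 39.8 to 40.2, 67.2 to 75.3 and 12.7 CPM and fibroblast markers to 6.36 to 6.69, 10.8 to 11.8, 18.1 to 21.2 and 2.67 to 3.67 CPM. In each group 3 of 6 leukocyte markers had counts, without PTPRC, and summed to at most 4.31 CPM. Of 6 liver markers 4 had counts in TE11 controls, without ALB and CYP3A4, and they summed to at most 0.523 CPM in any library. The part of these lists in the results below was not tested. In bulk RNA, fewer cells that express a gene and less of its RNA per cell cannot be told apart. The labels speak of independent replicates but not of what was repeated, cultures or libraries, so the p-values reflect only how far these libraries spread, and that spread may be technical.

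**Figure D1:**
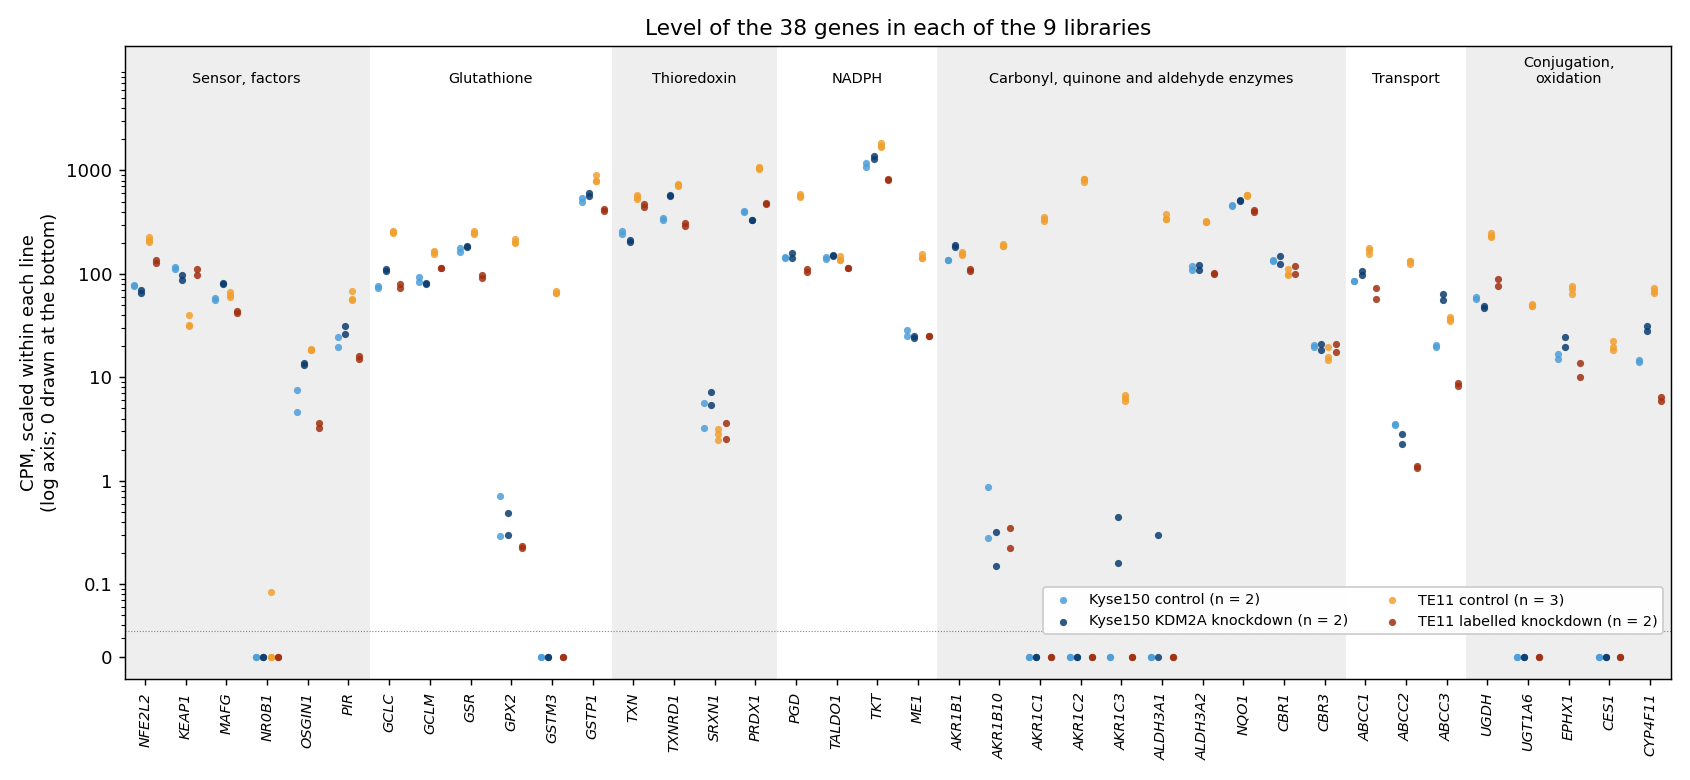
Level of each of the 38 genes in each of the 9 libraries, in CPM scaled within each line, on a log axis with 0 drawn at the bottom; each point is 1 library, coloured by group, and shading marks the roles. Points of TE11 controls lie far above the other 3 groups for GPX2, AKR1B10, AKR1C1, AKR1C2, ALDH3A1, ABCC2 and UGT1A6, whereas CBR1, CBR3 and SRXN1 lie close together in all 4 groups.

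The 38 genes took 1.04% to 1.09% of all gene counts in TE11 controls, 0.426% to 0.429% in the libraries labelled TE11 knockdown, 0.451% to 0.457% in Kyse150 controls and 0.529% to 0.538% in Kyse150 knockdowns. Over the 3 TE11 controls every gene of the list had at least 1 count, whereas 8 genes were at 0 in Kyse150 controls, 6 in Kyse150 knockdowns and 8 in the libraries labelled TE11 knockdown. Per kilobase of annotated exon the order of levels was led in Kyse150 controls by GSTP1 (270.0 CPM per kilobase), PRDX1 (262.1) and TXN (221.2), which are a glutathione transferase, a peroxiredoxin and thioredoxin itself. In TE11 controls the lead was PRDX1 (694.6 CPM per kilobase), TXN (487.9) and GSTP1 (431.9), and GPX2 (138.5) and AKR1C2 (125.1) stood among the top 8, both of which were near or at 0 in the other groups. The exon length joins all annotated exons of a gene, 9507 bases for TKT and 1142 for TXN, so this order depends on the annotation. By CPM alone TKT was highest in both, with means of 1122 CPM in Kyse150 controls and 1743 CPM in TE11 controls. No test between genes was made.

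In Kyse150, the comparison of knockdown with control asks which of these transcripts differ when KDM2A is lower. Of the 28 genes with enough counts to test, 13 rose and 4 fell at an adjusted p under 0.05 in edgeR's quasi-likelihood test, and 11 were not called. Across all 14060 genes tested in Kyse150, 24.8% rose, 23.3% fell and 48.2% were called in either direction. The median log2 fold change was 0.12 over the 28 genes and 0.0023 over all genes. The rises were led by the exporter ABCC3, the NRF2 target OSGIN1, the fatty acid hydroxylase CYP4F11, thioredoxin reductase TXNRD1 and GCLC, the catalytic subunit of the first enzyme of glutathione synthesis. The remaining 10 genes were too low to test in Kyse150: NR0B1, GPX2, GSTM3, AKR1B10, AKR1C1, AKR1C2, AKR1C3, ALDH3A1, UGT1A6 and CES1.

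In TE11, 33 of the 37 genes tested were lower in the libraries labelled knockdown and 1, KEAP1, was higher, by edgeR at an adjusted p under 0.05. Across all 16453 genes tested in TE11, 42.2% were lower, 35.9% were higher and 78.1% were called in either direction. Of the 37, 9 passed the filter on low counts only through the TE11 controls and so had to be lower. Without these 9, 24 of 28 genes were lower, with a median log2 fold change of −1.21 against −0.09 over all genes tested. Of the same 28, 16 were called and at least halved, against 26.4% of all genes tested. The median and share over all genes keep genes that passed only through the TE11 controls. They therefore stand beside the 37 and not the 28. The 3 genes not called were SRXN1, CBR1 and CBR3.

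**Figure D2:**
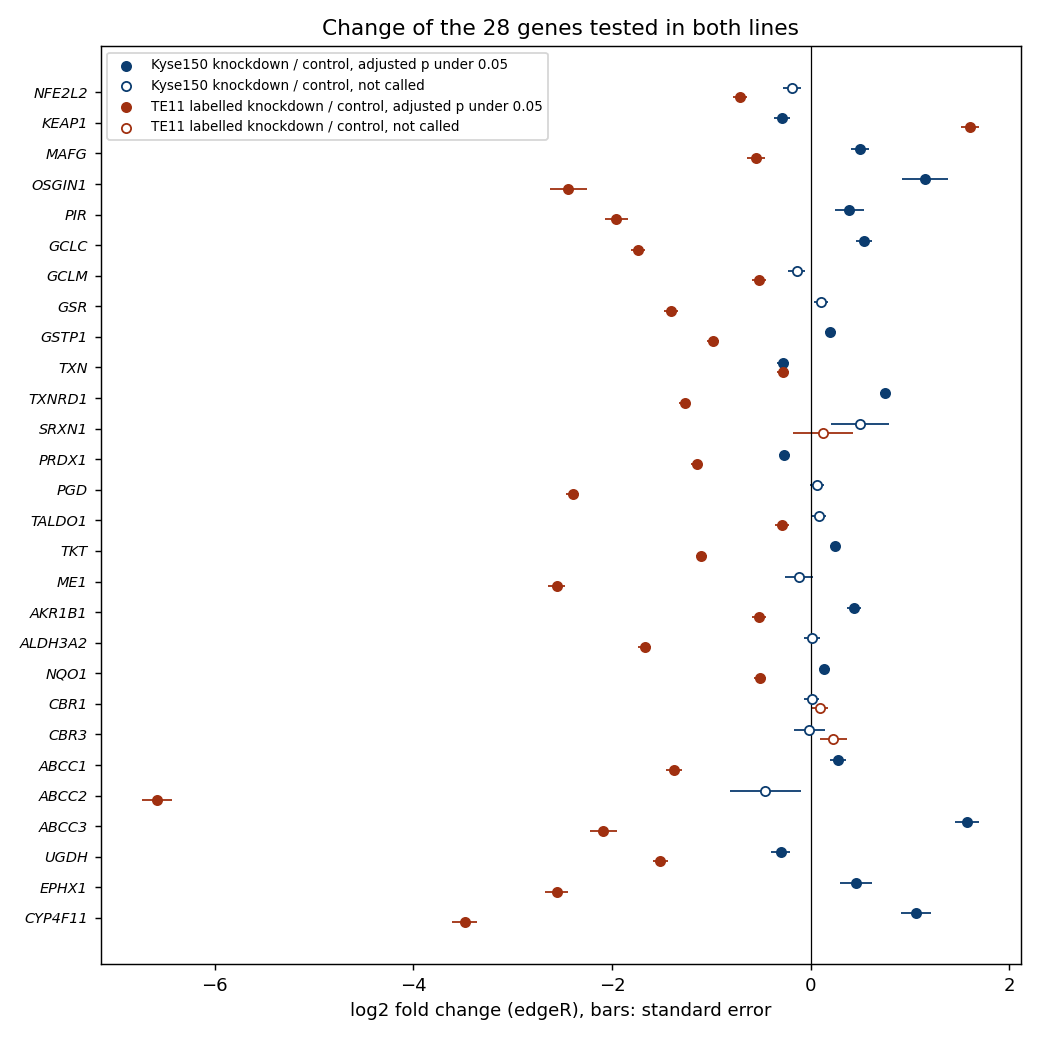
Log2 fold change of the 28 genes tested in both lines, knockdown over control, in Kyse150 (blue) and in TE11 as labelled (red), by edgeR; bars are standard errors and open circles are genes not called. ABCC3, OSGIN1, CYP4F11 and TXNRD1 lie right of 0 in Kyse150 and left of 0 in TE11, TXN lies left of 0 by the same amount in both, and KEAP1 is called lower in Kyse150 and higher in TE11.

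The 2 lines were set side by side in 1 fit of all 9 libraries, which tests whether the response differs between them. The difference was called for 28 of 37 genes, 27 with a lower and 1 with a higher response in TE11, against 33.1% lower, 33.8% higher and 66.9% in either direction among all 15895 genes tested. Without the 9 genes named above it was called for 24 of 28, 23 of them lower. All 13 genes that rose in Kyse150 were lower in TE11 as labelled. This is 13 of 28 genes tested in both lines (46.4%), against 1818 of 13276 genes (13.7%), and 55.5% of the 3273 genes that rose in Kyse150. Of the 4 genes that fell in Kyse150, TXN, PRDX1 and UGDH were also lower in TE11, and KEAP1 was higher.

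NFE2L2, which encodes NRF2 (ENSG00000116044), held 76.8 and 78.5 CPM in the Kyse150 controls and 65.9 and 70.5 CPM in the Kyse150 knockdowns. The groups did not overlap, but the log2 fold change of −0.19 (SE 0.09) was not called by edgeR (adjusted p = 0.0778). The TE11 libraries held 205.2, 225.9 and 212.0 CPM in the controls and 127.0 and 135.1 CPM in the libraries labelled knockdown, with a log2 fold change of −0.71 (SE 0.07, adjusted p = 8.26e-13, edgeR). The 3 controls lay above both other TE11 libraries. The response differed between the lines by −0.50 on the log2 scale (adjusted p = 6.51e-05, edgeR). Of the exons of NFE2L2, 17.6% overlap another annotated gene on the same strand, which makes its counts uncertain to that extent.

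KEAP1, the repressor of NRF2 (ENSG00000079999), was the 1 gene of the list higher in TE11 as labelled. It held 116.0 and 110.5 CPM in the Kyse150 controls and 97.2 and 87.9 CPM in the knockdowns, a log2 fold change of −0.29 (SE 0.08, adjusted p = 0.00357, edgeR). TE11 controls held 40.3, 31.8 and 31.6 CPM against 97.8 and 111.7 CPM in the libraries labelled knockdown, a log2 fold change of 1.60 (SE 0.09, adjusted p = 1.08e-20, edgeR). The 3 TE11 controls lay below both other TE11 libraries, and in Kyse150 both controls lay above both knockdowns. The difference between the responses was 1.92 on the log2 scale (adjusted p = 1.17e-19, edgeR). Without Kyse150 knockdown replicate 2 the Kyse150 call of KEAP1 was lost (log2 fold change −0.22, adjusted p = 0.0587, edgeR).

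Among the other regulators, MAFG, a small MAF partner of NRF2, held 56.4 and 58.3 CPM in Kyse150 controls and 81.2 and 80.3 CPM in knockdowns. Its log2 fold change was 0.49 (SE 0.09, adjusted p = 4.69e-05, edgeR) in Kyse150 and −0.55 (SE 0.09, adjusted p = 2.80e-07, edgeR) in TE11 as labelled, where controls held 59.4 to 66.4 CPM and the others 41.8 and 43.7 CPM. PIR, an iron-binding nuclear protein and NRF2 target, held 24.7 and 19.5 CPM in Kyse150 controls and 26.5 and 31.6 CPM in knockdowns. This rise of 0.39 (SE 0.15, adjusted p = 0.032, edgeR) was lost without Kyse150 control replicate 2 (0.22, adjusted p = 0.314) or knockdown replicate 2 (0.26, adjusted p = 0.261). In TE11, PIR held 56.7, 68.5 and 56.0 CPM in controls and 15.1 and 16 CPM in the libraries labelled knockdown, with a log2 fold change of −1.96 (SE 0.11, adjusted p = 2.97e-20, edgeR). OSGIN1, a growth inhibitor induced by oxidative stress, rose in Kyse150 from a mean of 6.11 to 13.6 CPM and was lower in TE11 as labelled, from 18.5 to 3.41 CPM. NR0B1, a nuclear receptor lacking a DNA-binding domain, had 1 count in all 9 libraries together and was not tested.

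Glutathione is the main small thiol of the cell. Of its 4 genes tested in Kyse150, GCLC and GSTP1 rose and none fell, against 24.8% and 23.3% of all genes, while all 6 were lower in TE11 as labelled, where 42.2% of all genes were. GPX2 and GSTM3 are among the genes that had to be lower there. GCLC held 76.8 and 73.4 CPM in Kyse150 controls against 106.4 and 112.0 CPM in knockdowns, a log2 fold change of 0.54 (SE 0.08, adjusted p = 3.50e-06, edgeR). The TE11 controls held 251.5, 257.6 and 249.7 CPM against 79.1 and 72.9 CPM, a log2 fold change of −1.74 (SE 0.07, adjusted p = 1.23e-25, edgeR). On the scale that joins both tables the libraries labelled TE11 knockdown stood at 1.08 times the Kyse150 controls, with no test. GCLM, the modifier subunit of the same enzyme, was not called in Kyse150 (log2 fold change −0.14, adjusted p = 0.177, edgeR) and was lower in TE11 by a smaller amount (−0.52, adjusted p = 5.03e-09, edgeR). GSR, which regenerates reduced glutathione with NADPH, had a mean of 170.6 CPM in Kyse150 controls and 183.3 CPM in knockdowns, not called, and 250.5 and 94.3 CPM in the TE11 groups. GSTP1 had means of 516.0 and 591.6 CPM in Kyse150, and its call there was lost without control replicate 1 (adjusted p = 0.136, edgeR) or knockdown replicate 1 (adjusted p = 0.0937, edgeR).

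GPX2 and GSTM3 were present in TE11 controls almost alone. GPX2, a glutathione peroxidase of epithelia, held 2466, 2303 and 2446 counts in the TE11 controls and 2 counts in each library labelled knockdown. In Kyse150 it held 2 to 5 counts in each of the 4 libraries. Its level in TE11 was 207.6 CPM ± 9.23 (SD, n = 3) in controls and 0.227 CPM ± 0.00724 (SD, n = 2) otherwise. The log2 fold change was −9.76 (SE 0.19, adjusted p = 9.13e-39, edgeR). GSTM3, a glutathione transferase of the mu class, held 774, 749 and 776 counts in the TE11 controls and 0 counts in the other 6 libraries, at least 388-fold lower against a floor of 3 counts over the libraries labelled knockdown. That floor, which a count of 0 allows, comes to 0.17 CPM there and to 0.215 and 0.232 CPM in Kyse150 controls and knockdowns, for counting error only.

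In the thioredoxin system TXNRD1, the reductase of thioredoxin, rose in Kyse150 and TXN itself fell. TXNRD1 held 346.7 and 332.5 CPM in Kyse150 controls and 566.8 and 573.0 CPM in knockdowns, a log2 fold change of 0.75 (SE 0.05, adjusted p = 8.38e-12, edgeR). In TE11 it held 720.9, 740.6 and 706.9 CPM in controls and 310.1 and 289.5 CPM in the libraries labelled knockdown, a log2 fold change of −1.27 (SE 0.06, adjusted p = 1.66e-23, edgeR). No values overlapped between the groups of a line. TXN was lower in both lines by the same log2 amount, −0.28 (adjusted p = 6.63e-04 in Kyse150 and 3.59e-05 in TE11, edgeR), and the difference between the lines was 0.02 (SE 0.09, adjusted p = 0.857, edgeR). PRDX1, a peroxidase that thioredoxin reduces, held 394.5 and 403.3 CPM in Kyse150 controls and 334.6 and 329.7 CPM in knockdowns, a log2 fold change of −0.26 (SE 0.05, adjusted p = 2.70e-04, edgeR). In TE11, PRDX1 held 1057, 1074 and 1041 CPM in controls and 471.7 and 482.1 CPM otherwise, a log2 fold change of −1.15 (SE 0.06, adjusted p = 8.95e-23, edgeR). SRXN1, which repairs over-oxidised peroxiredoxins, held 23 to 45 counts per library and was called in neither line. Another annotated gene on its strand covers 85% of its exons, and MMACHC on the other strand covers 24.9% of those of PRDX1, so both are uncertain.

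Reductases of both systems draw on NADPH. Of the 4 enzymes that supply it, 1 rose in Kyse150, which is near the 24.8% of all genes, and all 4 were lower in TE11 as labelled, against 42.2%. PGD, of the pentose phosphate pathway, held 145.3 and 143.7 CPM in Kyse150 controls and 158.9 and 142.9 CPM in knockdowns, which overlapped (log2 fold change 0.06, SE 0.07, adjusted p = 0.489, edgeR). In TE11 it held 590.3, 557.7 and 560.5 CPM in controls and 104.8 and 111.6 CPM in the libraries labelled knockdown, a log2 fold change of −2.40 (SE 0.07, adjusted p = 3.10e-32, edgeR). ME1, the cytosolic malic enzyme, held 28.4 and 24.9 CPM in Kyse150 controls and 25.0 and 24.2 CPM in knockdowns, and was not called (adjusted p = 0.522, edgeR). In TE11, ME1 held 141.6, 155.5 and 143.6 CPM in controls and 25.0 and 24.9 CPM otherwise, a log2 fold change of −2.56 (SE 0.09, adjusted p = 1.56e-28, edgeR). On the joined scale the libraries labelled TE11 knockdown stood at 0.798 times the Kyse150 controls for PGD and 0.999 times for ME1. TKT, a transketolase of the same pathway and among the most abundant transcripts here, held 1075 and 1169 CPM in Kyse150 controls and 1372 and 1280 CPM in knockdowns, a log2 fold change of 0.24 (SE 0.05, adjusted p = 3.83e-04, edgeR). In TE11 it held 1834, 1713 and 1684 CPM in controls and 818.6 and 805.6 CPM otherwise. TALDO1, a transaldolase, was not called in Kyse150 and was lower by 0.29 on the log2 scale in TE11 as labelled (adjusted p = 2.79e-04, edgeR).

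Aldo-keto reductases reduce aldehydes and ketones with NADPH, and several of them were read in TE11 controls and hardly or not elsewhere. AKR1C2 held 9298, 9488 and 9308 counts in the TE11 controls and 0 in the other 6 libraries, at least 4742-fold lower in the libraries labelled knockdown. AKR1C1 held 3834, 4105 and 3883 counts in the TE11 controls and 0 in the other 6 libraries, at least 1995-fold lower. AKR1C3 held 77, 68 and 75 counts in the TE11 controls, 3 and 1 in the Kyse150 knockdowns and 0 in the other 4 libraries, at least 37.1-fold lower in TE11 as labelled. These 3 genes are neighbours on chromosome 10 (AKR1C1 at 4963253 to 4983283, AKR1C2 at 4987400 to 5018031 and AKR1C3 at 5035354 to 5107686, GRCh38, GENCODE 29) and close in sequence, so counts may be divided unevenly among them. AKR1B10, known from intestine and from carcinomas, held 2102, 2219 and 2218 counts in the TE11 controls and 1 to 6 in each of the other 6 libraries (log2 fold change −9.31, SE 0.18, adjusted p = 2.27e-38, edgeR). Its neighbour AKR1B1, 68.3 kb away on chromosome 7, was present in all libraries. AKR1B1 rose in Kyse150 from 136.6 and 136.8 CPM to 188.6 and 180.5 CPM (log2 fold change 0.43, SE 0.07, adjusted p = 6.47e-06, edgeR) and was lower in TE11, with 161.6, 155.8 and 151.1 CPM in controls and 111.9 and 105.6 CPM otherwise (−0.52, SE 0.07, adjusted p = 7.01e-09, edgeR).

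The aldehyde dehydrogenases showed the same contrast between neighbours. ALDH3A1, which oxidises aromatic and lipid aldehydes, held 4301, 3864 and 4103 counts in the TE11 controls, 2 in 1 Kyse150 knockdown and 0 in the other 5 libraries, at least 2071-fold lower in the libraries labelled TE11 knockdown. ALDH3A2, 60.4 kb from it on chromosome 17 and active on fatty aldehydes, had means of 113.9 CPM ± 7.73 (SD, n = 2) and 114.9 CPM ± 8.61 (SD, n = 2) in the Kyse150 groups. In TE11 its means were 321.3 CPM ± 2.54 (SD, n = 3) in controls and 100.9 CPM ± 2.81 (SD, n = 2) otherwise (log2 fold change −1.67, SE 0.07, adjusted p = 4.90e-26, edgeR). NQO1, a quinone reductase often used as a readout of NRF2, had means of 462.4 and 508.9 CPM in Kyse150 and 576.9 and 404.6 CPM in TE11. Its Kyse150 rise of 0.14 (SE 0.05, adjusted p = 0.0323, edgeR) was lost when any 1 of the 4 libraries was left out (log2 fold change 0.11 to 0.16). It was also lost with the replicate number as a block (adjusted p = 0.131) and with RLE scaling (adjusted p = 0.051, both edgeR). The same held with no filter (adjusted p = 0.0737), all 9 libraries in 1 fit (adjusted p = 0.0669, both edgeR) and DESeq2 (adjusted p = 0.0938). The carbonyl reductases CBR1 and CBR3 were called in neither line. CBR1 had means of 135.8, 136.5, 103.2 and 110.0 CPM and CBR3 of 20.1, 19.8, 16.6 and 19.5 CPM in Kyse150 controls, Kyse150 knockdowns, TE11 controls and the libraries labelled TE11 knockdown. Of CBR3's exons 42.2% overlap an antisense gene, as do 17.7% of those of NQO1.

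The 3 transporters export glutathione, glucuronide and other conjugates from cells. ABCC3 showed the largest rise among the 28 genes tested in Kyse150, from 20.6 and 19.8 CPM to 63.6 and 56.3 CPM, a 2.97-fold change (log2 fold change 1.57, SE 0.12, adjusted p = 1.82e-11, edgeR). In TE11 it held 36.6, 34.7 and 38.1 CPM in controls and 8.83 and 8.33 CPM in the libraries labelled knockdown (−2.09, SE 0.13, adjusted p = 1.22e-18, edgeR). On the joined scale the Kyse150 knockdowns had the highest mean of the 4 groups (58.6 CPM), above TE11 controls (37.8 CPM). ABCC2 held 134.7, 133.3 and 125.6 CPM in the TE11 controls and 1.39 and 1.33 CPM otherwise (−6.58, SE 0.15, adjusted p = 1.69e-35, edgeR), against 2.26 to 3.53 CPM in the Kyse150 libraries, which were not called (adjusted p = 0.302, edgeR). ABCC1 held 84.6 CPM in each Kyse150 control and 98.3 and 106.6 CPM in the knockdowns (0.28, SE 0.08, adjusted p = 0.00593, edgeR), a call lost without knockdown replicate 2 (adjusted p = 0.0853). In TE11, ABCC1 held 169.6, 156.8 and 177.3 CPM in controls and 57.1 and 72.3 CPM otherwise (−1.38, SE 0.08, adjusted p = 1.31e-19, edgeR).

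Among the enzymes of conjugation, hydrolysis and oxidation, CYP4F11, a cytochrome P450 of fatty acids, rose in Kyse150 from 14.6 and 14.1 CPM to 28.1 and 31.6 CPM (log2 fold change 1.06, SE 0.15, adjusted p = 2.18e-06, edgeR). In TE11 it held 73.0, 65.0 and 67.7 CPM in controls and 6.39 and 5.89 CPM otherwise (−3.48, SE 0.13, adjusted p = 9.53e-28, edgeR). The difference between the responses, −4.51 on the log2 scale (SE 0.20, adjusted p = 2.59e-29, edgeR), was the largest among the 28 genes tested in both lines after that of ABCC2. UGT1A6, which attaches glucuronic acid to phenols, held 556, 589 and 584 counts in the TE11 controls and 0 in the other 6 libraries, at least 292-fold lower. It shares up to 36.5% of its exon length with another member of the UGT1A locus, so its counts depend on how shared reads were treated. CES1, a carboxylesterase, held 220, 258 and 222 counts in the TE11 controls and 0 in the other 6, at least 118-fold lower. UGDH, which makes the glucuronic acid donor, had means of 58.5 and 47.4 CPM in Kyse150 (−0.30, SE 0.10, adjusted p = 0.0127, edgeR) and 236.8 and 83.1 CPM in TE11. EPHX1, an epoxide hydrolase, had means of 16.03 and 22.1 CPM in Kyse150 (0.46, SE 0.16, adjusted p = 0.0237, edgeR) and 70.9 and 12 CPM in TE11. The Kyse150 calls of UGDH and EPHX1 were each lost without knockdown replicate 2 (adjusted p = 0.0685 and 0.286). That of UGDH was also lost without control replicate 1 (adjusted p = 0.0817) and that of EPHX1 without control replicate 2 (adjusted p = 0.134).

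Levels were also set side by side across the tables, on 1 scale over identifiers present in both. The tables were made with different annotations, so no test was made and a difference for a single gene can come from the tables. Of 37 genes at 1 CPM or more in either group, TE11 controls were at least 2-fold above Kyse150 controls in 24, at most 0.5 times their level in 1, KEAP1 (0.322), and within 2-fold in 12. Of the 24, 9 reached 1 CPM only in the TE11 controls and had to be higher, which leaves 15 of 28. Over all genes at 1 CPM or more in either group these shares were 28%, 17.7% and 54.3%. They keep genes that reach 1 CPM in only 1 of the groups, so they stand beside the 37 and not the 28. NFE2L2 stood 2.91-fold, GCLC 3.55-fold, PGD 4.16-fold, ME1 5.82-fold and ABCC2 39.4-fold higher in the TE11 controls. The libraries labelled TE11 knockdown were within 2-fold of Kyse150 controls for 25 of 28 genes, at most 0.5 times for ABCC2 (0.414), ABCC3 (0.453) and CYP4F11 (0.457), and at least 2-fold above for 0. Over all genes these shares were 80.4%, 10.2% and 9.44%. Between the TE11 groups on this scale, 25 of 37 genes were at least halved, 1 at least doubled and 11 within 2-fold, of which the same 9 had to be halved, which leaves 16 of 28 halved. Over all genes at 1 CPM or more in either group, 26.1%, 15.6% and 58.3% were halved, doubled and within 2-fold, which again stands beside the 37.

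**Figure D3:**
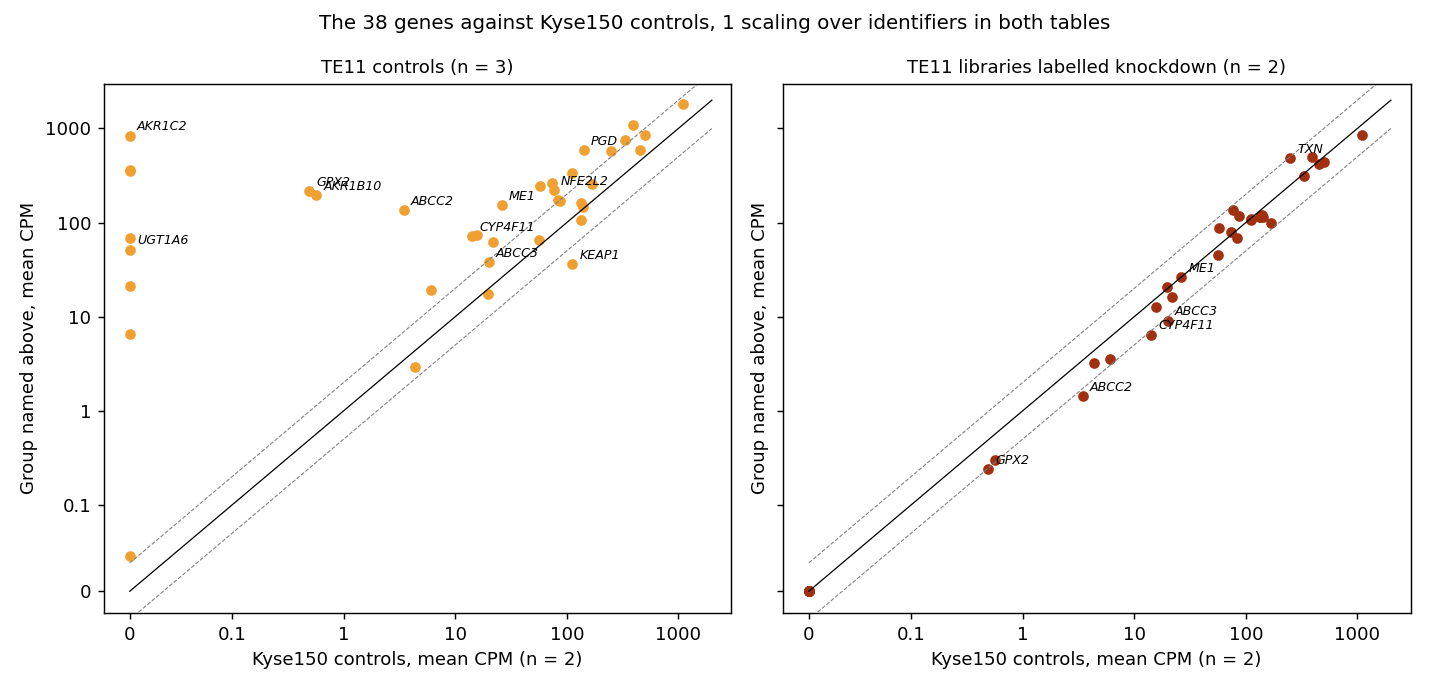
Mean CPM of each of the 38 genes in Kyse150 controls (x axis, n = 2) against TE11 controls (left, n = 3) and against the libraries labelled TE11 knockdown (right, n = 2), on 1 scale over both tables, log axes with 0 at the edge; the solid line marks equality and the dashed lines 2-fold. In the left panel 24 of 37 genes lie above the upper dashed line or on the left edge above it, and in the right panel 25 of the 28 genes at 1 CPM or more lie between the dashed lines.

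A further 102 genes of the same pathways were read as 7 lists. In Kyse150, 31 of 81 tested rose and 11 fell, against 24.8% and 23.3% of all genes. In TE11, 54 of 88 were lower and 20 higher in the libraries labelled knockdown, against 42.2% and 35.9%. The 88 include genes that passed the filter only through the TE11 controls and so had to be lower. Examples are SESN3, with 2371 counts in the controls and 1 otherwise, and GSTA4, with 1240 and 3. No count without such genes was made, and the shares over all genes keep them too. The 5 heme and iron targets of NRF2 were all lower in TE11 as labelled, and 3 of 5 rose in Kyse150 with none falling. The iron storage subunit FTL had means of 427.5 CPM ± 17.2 (SD, n = 2) and 929.0 CPM ± 58.5 (SD, n = 2) in Kyse150 controls and knockdowns (log2 fold change 1.12, SE 0.06, adjusted p = 3.24e-15, edgeR). In TE11, FTL had means of 6010 CPM ± 349 (SD, n = 3) and 257.1 CPM ± 22.3 (SD, n = 2). This is a log2 fold change of −4.55 (SE 0.07, adjusted p = 8.41e-43, edgeR). FTL has many processed pseudogenes, which makes its counts uncertain.

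Each list held genes of both directions in at least 1 line except that of heme and iron. The shares to read them against are again 24.8% higher and 23.3% lower over all genes in Kyse150, and 35.9% and 42.2% in TE11, and several lists lie near these. Genes nearly absent from the libraries labelled knockdown, such as HTATIP2 with 0 counts there, enter the TE11 counts through the controls alone. Of the 14 partners, repressors and relatives of NRF2, 5 rose and 2 fell in Kyse150, and 8 were lower and 3 higher in TE11. SQSTM1, an adaptor that can sequester KEAP1, rose in Kyse150 from a mean of 515.1 to 760.9 CPM and was lower in TE11, from 786.8 to 449.9 CPM. Of other glutathione genes 9 of 16 rose and 2 fell in Kyse150, led by OPLAH and CHAC1, which act in glutathione turnover and had log2 fold changes of 1.92 (SE 0.30, adjusted p = 8.42e-06, edgeR) and 1.88 (SE 0.33, adjusted p = 3.43e-05, edgeR). In TE11, 10 of 18 were lower and 5 higher, and GSTA4, GLRX and GSTM4, among the 10, had to be lower. Of other thioredoxin genes 2 of 10 rose and 2 fell in Kyse150, while 6 of 11 were lower and 4 higher in TE11. PRDX2 was among the higher ones there, with 3.32 CPM ± 1.07 (SD, n = 3) in controls and 143.9 CPM ± 2.24 (SD, n = 2) otherwise, against the direction of PRDX1.

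For NADPH supply beyond the 4 enzymes above, 2 of 10 genes rose and 2 fell in Kyse150, near the 24.8% and 23.3% of all genes, and 7 of 10 were lower and 2 higher in TE11. TIGAR, which diverts glucose into the pentose phosphate pathway, fell in Kyse150 from 23.9 to 12.1 CPM and was higher in TE11, at 1.47 CPM in controls and 9.43 CPM in the libraries labelled knockdown. Of other carbonyl and aldehyde enzymes 7 of 12 rose and 1 fell in Kyse150, and 9 of 13 were lower and 2 higher in TE11. ALDH2, the mitochondrial acetaldehyde dehydrogenase, had 72.7 CPM ± 0.578 (SD, n = 3) in TE11 controls and 1.42 CPM ± 0.126 (SD, n = 2) otherwise. Of other genes of conjugation and transport 3 of 14 rose and 2 fell in Kyse150, and 9 of 17 were lower and 4 higher in TE11. CYP1B1, a cytochrome P450 of steroids and aromatic hydrocarbons, had 590.6 CPM ± 21.9 (SD, n = 3) and 4.88 CPM ± 0.166 (SD, n = 2) in the TE11 groups.

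**Figure D4:**
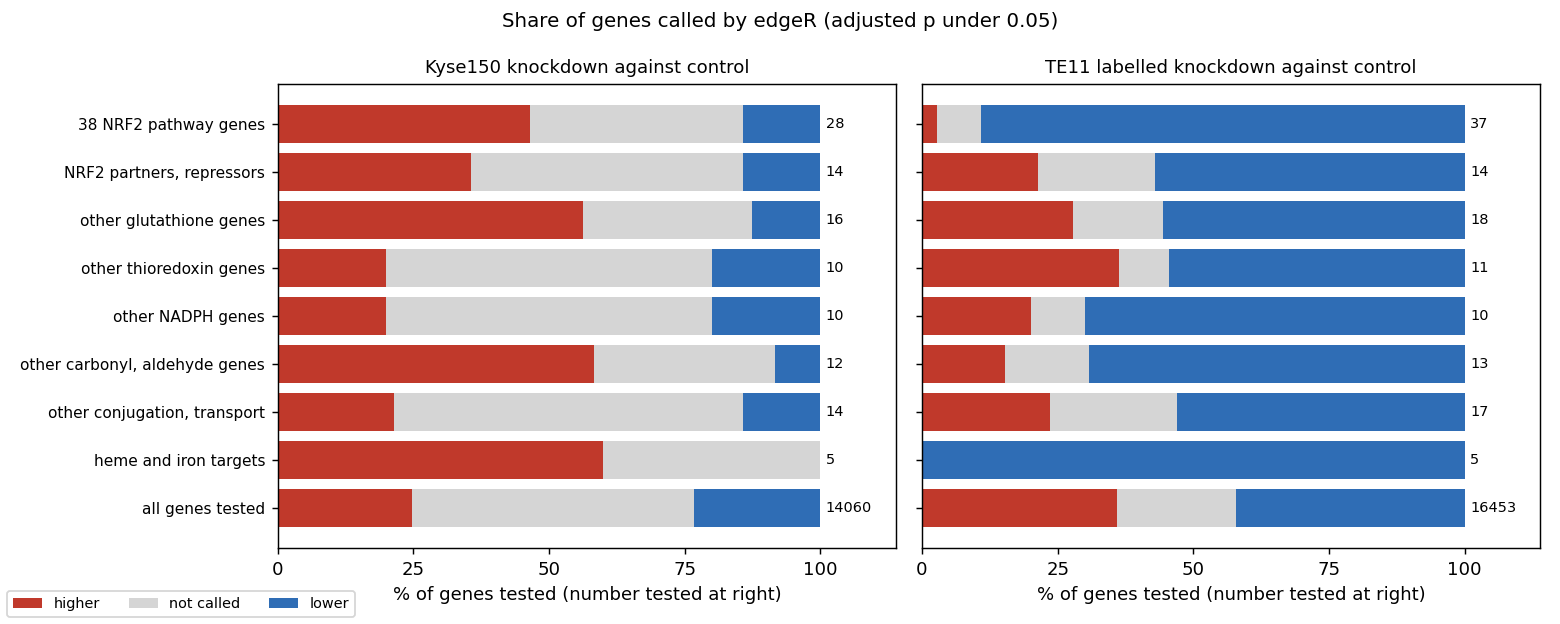
Share of genes called higher (red), called lower (blue) or not called (grey) by edgeR, as a percent of the genes tested in each list, in Kyse150 (left) and TE11 as labelled (right); the number tested stands at the right of each bar and all genes are the lowest bar. In the left panel 13 of the 28 genes are red and 4 are blue, and in the right panel 33 of 37 are blue and 1 is red.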

How the data were processed

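Gene counts came from 9 libraries, grouped by the sample titles. The authors deposited raw counts per gene in whole numbers, 1 table for each line (57820 genes for Kyse150, 60683 for TE11, 52165 identifiers in both). The submitters' processing notes list the tools HISAT2 2.1.0, bcl2fastq 2.19, DESeq2 and HTSeq 0.9.1. Builds listed there are GRCh38.p13 and GRCh37.p13. Which table used which build, and the strand setting, are not given in the sources used here, so paralogs, antisense genes and other overlaps are uncertain. Per the labels' protocols 3 replicates were made, whereas 3 of the 4 groups hold 2 libraries here. HTSeq's summary rows entered neither library sizes nor tests: counts on no gene were 42.3% to 44.5% and counts aligned to more than 1 place 2.94% to 6.78% of a column.

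Low genes were removed with filterByExpr at a minimum count of 10 and a total of 15. After TMM scaling each line was fitted alone by group with edgeR 4.0.16 in R 4.3.3, using the robust quasi-likelihood test. P-values were adjusted by the Benjamini-Hochberg method across every gene tested and called under 0.05. The difference between lines was a contrast in 1 fit of all 9 libraries. A gene at 0 counts in a group was set against 3 counts over that group. Scripts were checked on simulated data. Libraries of a group differed by more than counting noise (chi-square per degree of freedom 1.62 to 4.91), so none was merged. The deviations of same-numbered libraries from their group means correlated at −0.0684 in Kyse150 and at 0.000581 and −0.00983 in TE11. In a group of 2 libraries these deviations mirror each other, which limits what the values can show. The numbers were not taken as pairing. Alternatives were DESeq2 1.42.0, RLE and upper-quartile scaling, no filter, a minimum count of 30, the replicate block, all libraries in 1 fit, and each library left out.

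The 38 genes and the other pathway lists were chosen with earlier results of these data known. Values in every library were given for NFE2L2, KEAP1, the gene of each role with the smallest p in Kyse150, the 2 with the smallest p in TE11, and genes at 0 in a group that reached 5 CPM in another. Other genes are given by level or count. In each other pathway list, candidates for naming were the 2 called genes per line with the largest absolute log2 fold change. Their mean had to reach 2 CPM. Promoter windows and their coordinates come from RefSeq (GRCh38.p14), matched by symbol for 30 of 38 genes. Intervals and floors cover counting error only.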

Additional observations from a re-analysis of the deposited data

Results flagged for a closer look

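For 28 of the 37 genes tested the response in TE11 as labelled differed from that in Kyse150 by edgeR's test of the difference itself (adjusted p under 0.05), where 66.9% of all genes tested did. Of the 37, 9 passed the filter on low counts only through the TE11 controls. Without these 9, the difference was called lower for 23 of 28 genes and higher for 1. Values are the TE11 log2 fold change minus the Kyse150 log2 fold change. Among all genes of the list that were called, KEAP1 was the only one with a positive difference, 1.92. Among the other regulators the difference was −0.50 for NFE2L2, −1.02 for MAFG, −3.56 for OSGIN1 and −2.32 for PIR. In the glutathione genes it was −2.25 for GCLC, −0.36 for GCLM, −1.49 for GSR, −9.37 for GPX2 and −1.16 for GSTP1. The value for GCLM was called, but not without Kyse150 control replicate 2 (−0.27, adjusted p = 0.0572, edgeR).

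In the thioredoxin system the difference was −1.99 for TXNRD1 and −0.86 for PRDX1, and in NADPH supply −2.44 for PGD, −0.35 for TALDO1, −1.32 for TKT and −2.42 for ME1. Among the carbonyl and aldehyde enzymes it was −0.93 for AKR1B1, −8.03 for AKR1B10, −13.28 for AKR1C3, −18.14 for ALDH3A1, −1.66 for ALDH3A2 and −0.63 for NQO1. The values of AKR1C3 and ALDH3A1 rest on groups at 0 counts and are no measure of size, and the call of ALDH3A1 was lost without Kyse150 knockdown replicate 1, which holds its 2 Kyse150 counts (adjusted p = 0.9998, edgeR). The values of GPX2 and AKR1B10 rest on 3 to 8 counts in each group other than the TE11 controls (SE 1.285 and 1.536). The transporters differed by −1.63 for ABCC1, −6.09 for ABCC2 and −3.63 for ABCC3. The remaining enzymes differed by −1.18 for UGDH, −2.99 for EPHX1 and −4.51 for CYP4F11. GSTM3, AKR1C1, AKR1C2, UGT1A6 and CES1, at 0 counts in 3 of the 4 groups, were not called by edgeR and were called by DESeq2. What sets the libraries labelled TE11 knockdown apart was not tested.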

How the results depend on the processing

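Directions and calls of single genes were the same as reported in 283 of 318 values over all alternatives in Kyse150, 443 of 456 in TE11 and 538 of 555 for the difference between lines. The 33 genes lower in TE11 stayed at 33 under every alternative, and the 27 lower in the difference ranged from 26 to 32. Of the 33, 9 passed the filter only through the TE11 controls and had to be lower under any alternative, which leaves 24. With DESeq2, all genes called in Kyse150 dropped to 2156 higher and 2181 lower, from 3490 and 3281, and the 13 higher genes of the list to 9. Leaving out 1 library, the 4 lower genes in Kyse150 ranged from 2 to 4, with 2 without Kyse150 knockdown replicate 2, where KEAP1 and UGDH were lost, and the 13 higher genes from 9 to 11. The 1 higher gene in TE11 ranged from 1 to 2, CBR1 being called without control replicate 1 and CBR3 without control replicate 3. With the replicate number as a block it was 2, CBR3 being called (log2 fold change 0.36, adjusted p = 0.0322, edgeR). The block also ended the Kyse150 call of NQO1 and the TE11 call of KDM2A (adjusted p = 0.0838), and no other call of the 38 genes. With library number not shown to pair samples, no loss under the block is read as a weaker effect.

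KDM2A in TE11 was also no longer called with DESeq2 (0.15, adjusted p = 0.0739), upper-quartile scaling (0.10, adjusted p = 0.185), no filter (0.16, adjusted p = 0.0546), a minimum count of 30 (0.13, adjusted p = 0.0734), or without TE11 control replicate 2 or 3 or labelled knockdown replicate 2 (0.0968 to 0.154). In Kyse150, DESeq2 ended the calls of PIR (adjusted p = 0.173), NQO1 (0.0938), ABCC1 (0.0572), EPHX1 (0.153) and UGDH (0.0926), and SRXN1 was called without control replicate 2 (0.94, adjusted p = 0.0317, edgeR).

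Signs turned for uncalled genes near 0. In Kyse150, leaving out each library, PGD ranged from −0.020 to 0.13, ALDH3A2 from −0.069 to 0.083, CBR1 from −0.13 to 0.13 and CBR3 from −0.12 to 0.071. With no filter ALDH3A2 was −0.0011 and CBR1 −0.0030. CBR3 was 0.014 with upper-quartile scaling and 0.0066 at a minimum count of 30. In TE11 SRXN1 ranged from −0.13 to 0.36 and CBR1 from −0.026 to 0.22, both lowest without labelled knockdown replicate 1. For the difference, TXN was −0.096 with upper-quartile scaling, −0.022 at a minimum count of 30 and ranged from −0.028 to 0.082 leaving out a library. For the difference, SRXN1 ranged from −0.80 to 0.0073 and CBR1 from −0.029 to 0.25 leaving out a library, and CBR1 was −0.012 with upper-quartile scaling. That scaling moved the median difference of all genes from −0.063 to −0.181. ABCC2 could not be tested in Kyse150 at a minimum count of 30. The cause of these changes was not tested. Depth limits the genes with few counts: SRXN1, OSGIN1 and ABCC2 in Kyse150, and all genes at 0.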
